A study of Homo sapiens with 16 samples.

Results

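The retinoid receptors RARA, RARB, RARG, RXRA and RXRB and the corepressors NCOR1 and NRIP1 were followed through 2 human acute myeloid leukaemia cell lines exposed to a retinoid, to an inhibitor of a corepressor complex, or to both. These 7 genes were chosen by name, out of 60603 genes in the deposited tables. SKNO-1, a line that carries the RUNX1-RUNX1T1 fusion, was grown in RPMI1640 with serum, antibiotics and GM-CSF at 10 ng/mL. U-937, a monocyte-like line, was grown in the same medium without the GM-CSF. Each line received DMSO, the vehicle; all-trans retinoic acid (ATRA) at 0.1 µM; Corin, a dual inhibitor of the LSD1 demethylase and the histone deacetylases of the CoREST complex, at 0.1 µM; or ATRA and Corin together, each at 0.1 µM. RNA was collected after 24 h. Every combination of line and agent had 2 libraries, which makes 8 groups and 16 libraries. Each condition was studied in established lines only, and the labels do not say whether the 2 libraries of a group came from separate cultures, so the p-values measure the spread between these samples, which may be technical.

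Retinoic acid receptors (RARs) are ligand-dependent transcription factors that bind DNA as heterodimers with retinoid X receptors (RXRs). Without ligand, an RAR-RXR pair can hold a corepressor such as NCOR1, which brings histone deacetylase activity to the target gene. When retinoic acid binds, the corepressor is released and coactivators take its place. NRIP1 is a corepressor of another kind, recruited to receptors that have bound their ligand. In myeloid cells this system is known for the differentiation that ATRA can bring about, and RARA is the receptor gene fused to PML in acute promyelocytic leukaemia. RARB is a classical direct target of retinoic acid, through a retinoic acid response element in its promoter.

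That element is printed here because RARB was the member that went from 0 counts without ATRA to measured levels with it in both lines. Of 17 RefSeq promoter windows (250 bases before to 50 bases after a transcription start, GRCh38.p14) that matched the members, 1 held a direct repeat of receptor half-sites. The half-sites searched were AGGTCA and, as its variants, AGTTCA plus GGGTCA plus GGTTCA, in tandem on either strand with a spacer of 1, 2 or 5 bases (DR1, DR2 and DR5). The window is chr3:25428013-25428312 on the plus strand, with the matching DR5 in capitals from 53 to 37 bases before the start; it held no other match.
RARB promoter: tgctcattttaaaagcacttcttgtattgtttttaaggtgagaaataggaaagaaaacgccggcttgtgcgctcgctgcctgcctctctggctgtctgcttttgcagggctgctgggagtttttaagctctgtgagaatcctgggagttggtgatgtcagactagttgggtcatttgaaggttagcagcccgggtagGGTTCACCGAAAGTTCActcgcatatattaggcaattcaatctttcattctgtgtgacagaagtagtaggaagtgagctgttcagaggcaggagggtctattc
A DR5 of these letters occurred in 31 of 34943 promoter windows in the RefSeq table (0.0887%), and any of the 3 spacings in 90 (0.258%). The other 3 RARB windows held no match, and neither did the windows of RARA (3), RARG (1), RXRA (2), RXRB (2), NCOR1 (2) and NRIP1 (3). A match describes these letters only, and counts per gene do not show which RARB promoter was in use.

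The libraries held between 28.4 M and 37.8 M estimated counts. Levels are given below as CPM, counts relative to library size scaled within each line by the TMM method, and as TPM, which also divides by transcript length and is the scale for comparing one gene with another. The lines kept their identities: RUNX1T1 lay between 91.99 and 147.8 CPM in SKNO-1 and at most at 0.0344 CPM in U-937, whereas HOXA9 and HOXA10 had 0 counts in SKNO-1 and lay above 38.4 and 74.8 CPM in U-937. SPI1 and CD33, which mark myeloid cells, were present in both, while ITGAM varied with treatment from 0.316 to 115.7 CPM in SKNO-1 and from 4.58 to 381 CPM in U-937. Other myeloid markers differed between the lines. MPO had a median of 2537 CPM in SKNO-1 and of 0.160 CPM in U-937. The medians of CEBPA were 12.5 and 127 CPM, and those of LYZ 185 and 1123 CPM. The 12 markers of T, B, erythroid, epithelial and stromal cells summed to at most 3.25 CPM in SKNO-1 and 8.45 CPM in U-937. Of the 2 and 4 of these that passed the low-count filter, ATRA raised none in SKNO-1 and 1 in U-937, Corin 2 and 3, and both agents 1 and 3. The shares of all genes called with ATRA, Corin and both agents were 6.75%, 37.9% and 46.7% in SKNO-1. In U-937 they were 41.8%, 12.9% and 65.3%. The part of these markers in the members' results was not tested. The 2 SKNO-1 DMSO libraries stood apart from each other: their log2 difference across well-expressed genes had an SD of 0.361, against 0.108 to 0.209 in the other 7 groups, and followed exonic GC content across genes (r = 0.796). RARA, RARG, RXRA and RXRB have GC contents of 61.9%, 60.2%, 60.6% and 58.4%, NCOR1 45.2%, RARB 40.2% and NRIP1 38.8%. The difference between the 2 libraries of a group also followed GC content in U-937 DMSO (r = 0.577) and, less, with both agents in U-937 (0.387) and with ATRA in SKNO-1 (-0.421). Below, a value without 1 SKNO-1 DMSO library, or with the GC trend removed, stands beside a result against DMSO within a line where it changes the call.

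**Figure D1:**
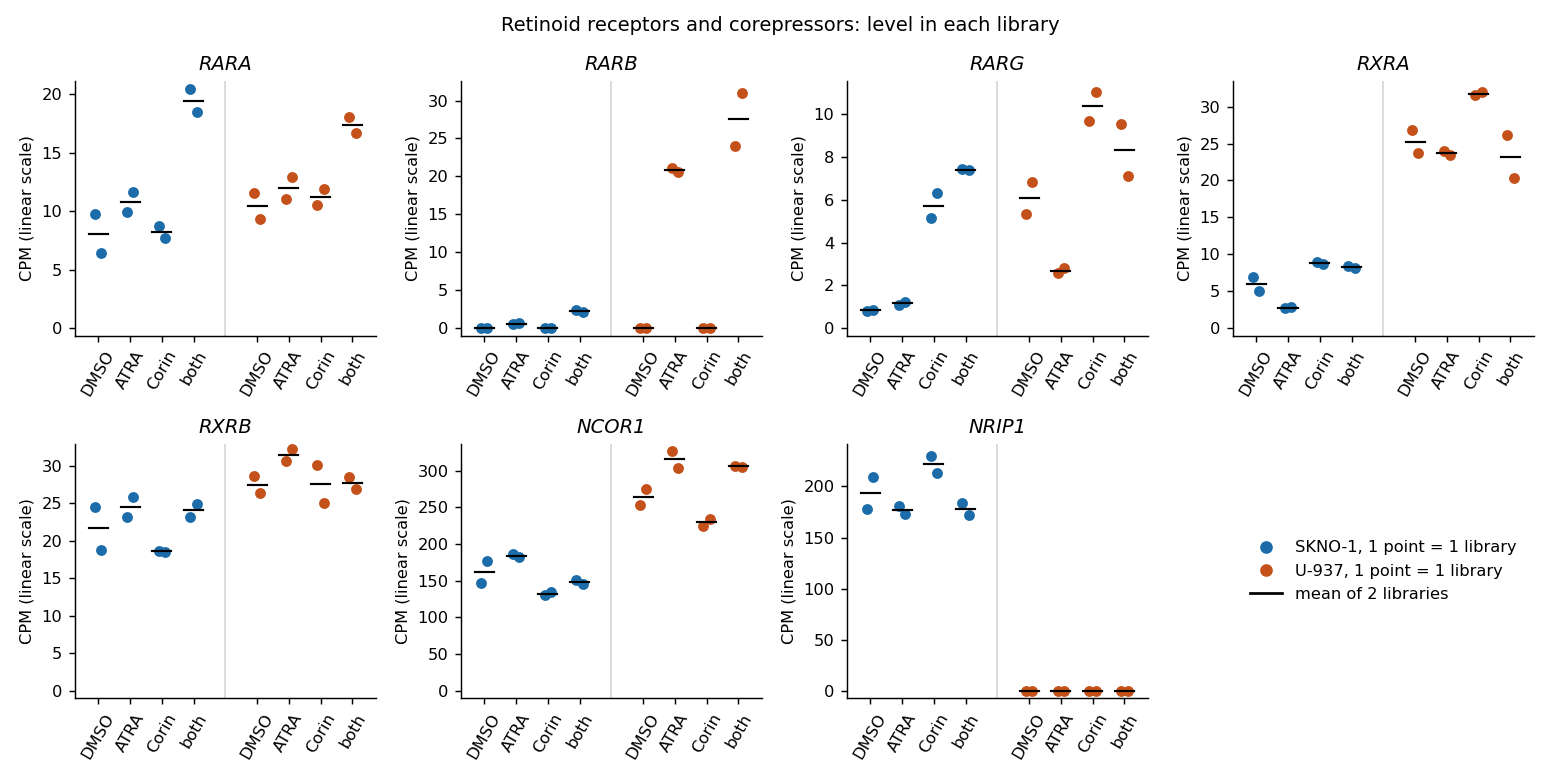
Level of each of the 7 members in every library, in CPM scaled within a line, by line and agent; each point is a library and each line the mean of the 2 libraries of a group. RARB stands at 0 with DMSO or Corin and at 20.6 to 31.0 CPM in the 4 U-937 libraries with ATRA, and NRIP1 exceeds 172 CPM in every SKNO-1 library and stays at or under 0.0827 CPM in U-937.

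In vehicle-treated cells the most abundant member per transcript length was NCOR1, at 33.1 ± 12.3 TPM in SKNO-1 and 63.1 ± 0.304 TPM in U-937 (mean ± SD, n = 2). In SKNO-1 the order continued with NRIP1 (24.0 ± 8.41 TPM), RXRB (8.87 ± 0.842), RARA (4.79 ± 0.559), RXRA (0.925 ± 0.0354) and RARG (0.330 ± 0.127), with RARB at 0. The values of NCOR1 and NRIP1 overlapped across the 2 libraries, but NCOR1 was the higher within each, at 24.4 against 18.0 TPM and 41.8 against 29.9 TPM. The other neighbours in this order did not overlap. In U-937 the order was NCOR1, RXRB (13.2 ± 1.59 TPM), RARA (7.47 ± 2.02), RXRA (4.58 ± 0.297) and RARG (3.11 ± 0.594), with RARB and NRIP1 at 0, and no neighbours overlapped. The lengths that RSEM estimated differed between libraries (1331 to 1664 bases for RARA), which moves TPM independently of counts. The scale of TPM relative to CPM also differed between libraries. In SKNO-1 DMSO, the first library had more RARA than the second by CPM (9.75 against 6.40) and less by TPM (4.39 against 5.18). RXRA did the same (6.94 against 5.08 CPM, 0.90 against 0.95 TPM) at similar lengths of 5525 and 5556 bases. Comparisons of TPM between libraries or groups below carry this difference in scale. In bulk RNA, fewer cells that express a gene and less RNA per cell cannot be told apart.

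Only SKNO-1 had GM-CSF in its medium, so line and GM-CSF cannot be told apart in any comparison between lines. The lines differed most in NRIP1. SKNO-1 DMSO libraries held 178 and 209 CPM of this corepressor and U-937 DMSO libraries 0 counts, at least 3973-fold lower when 3 counts over the U-937 group are taken as the floor (adjusted p = 8.39e-16, edgeR's quasi-likelihood test over 16 libraries). RARG was 6.61-fold higher in U-937 (log2 difference 2.72, SE 0.23, adjusted p = 3.6e-09), RXRA 3.87-fold higher (1.95, SE 0.14, adjusted p = 5.69e-10) and NCOR1 1.498-fold higher (0.58, SE 0.09, adjusted p = 2.11e-05). In total 3 members were higher in U-937 and 1 lower, of 6 with a result (RARB had 0 counts in both groups), where 64.8% of all 19872 genes tested differed between the DMSO groups. These 4 calls held under all 24 alternatives tried. RARA and RXRB did not pass the test (log2 0.25, SE 0.17, adjusted p = 0.206, and 0.22, SE 0.12, adjusted p = 0.124), but both did without the first SKNO-1 DMSO library (0.62, adjusted p = 0.00282, and 0.46, adjusted p = 0.00252).

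Against DMSO, ATRA changed 2 of 7 members in SKNO-1 (RARB higher, RXRA lower), where 6.75% of 17479 genes tested changed. Corin changed 3 of 6 in that line, RARB being at 0 in both groups (RARG and RXRA higher, NCOR1 lower; 37.9% of all genes), and both agents 4 of 7, all of them higher (RARA, RARB, RARG and RXRA; 46.7% of all genes, and 24.7% called higher). In U-937, where NRIP1 was too low to test, ATRA changed 3 of 6 members (RARB and NCOR1 higher, RARG lower; 41.8% of 17717 genes), Corin 1 of 5, again without RARB (RARG higher; 12.9%, and 8.55% called higher) and both agents 3 of 6 (RARA, RARB and RARG, all higher; 65.3%, and 33.1% called higher). Adding Corin to ATRA changed 5 of 7 members in SKNO-1, 4 higher and 1 lower (44.8% of all genes), and 3 of 6 in U-937, all higher (47.4%, and 22.5% called higher). Adding ATRA to Corin changed 2 of 7 in SKNO-1, both higher (10.4%, and 4.82% called higher), and 4 of 6 in U-937, 3 higher and 1 lower (60.5%). The median log2 difference of the 7 members that passed the low-count filter in SKNO-1 or the 6 in U-937, RARB at its fitted value included, was 0.19 with ATRA, 0.03 with Corin and 0.46 with both agents in SKNO-1, beside medians over all genes of 0.0117, 0.00123 and 0.0549; in U-937 it was 0.19, 0.05 and 0.33, beside 0.0181, 0 and 0.0339. The 3 comparisons with DMSO in a line share their control libraries, so their results are not independent of each other. Several shares lie near that of all genes tested, and the counts are read here member by member.

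**Figure D2:**
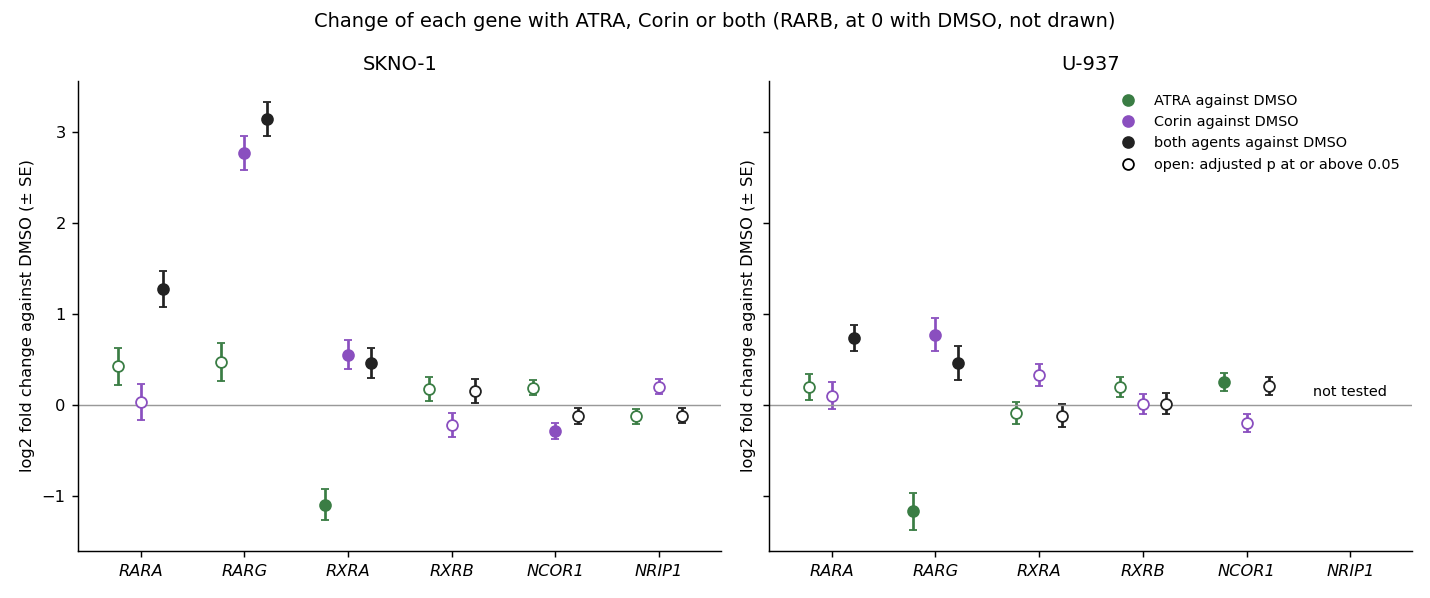
Log2 fold change against DMSO in each line, with bars of 1 standard error, for 6 members; filled points passed the test and open points did not. RARB is not drawn because its DMSO level is 0, NRIP1 was not tested in U-937, and RARG in SKNO-1 lies farthest from 0, at 2.77 with Corin and 3.14 with both agents.

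RARB (ENSG00000077092.19, chr3:24687887-25597932, plus strand; identifiers here and below are those of the count table, and positions are from GENCODE 44 on GRCh38, matched without the identifier's version), the receptor gene that carries the DR5 printed above, had 0 counts in all 8 libraries without ATRA, which allows at most 0.0414 to 0.0489 CPM in a group (3 counts over its 2 libraries, counting error only). In SKNO-1 it reached 18 and 24 counts with ATRA (0.54 and 0.65 CPM) and 75 and 70 counts with both agents (2.34 and 2.10 CPM). In U-937 it reached 766 and 677 counts with ATRA (21.1 and 20.6 CPM) and 812 and 903 counts with both (24.0 and 31.0 CPM). Every library with ATRA was thus above every library without it, and every such U-937 library was above every such SKNO-1 library. Against DMSO, with 3 counts over the group as the floor, RARB was at least 14.4-fold higher with ATRA (adjusted p = 0.00371) and at least 53.6-fold higher with both agents (adjusted p = 0.000143) in SKNO-1, by edgeR's quasi-likelihood test. In U-937 it was at least 427-fold higher with ATRA (adjusted p = 1.47e-15) and at least 558-fold higher with both (adjusted p = 1.02e-16). A fit to the 4 SKNO-1 ATRA and DMSO libraries alone left the first of these at an adjusted p of 0.0564.

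Corin alone left RARB at 0 counts in both lines, so no fold can be given for it. Together with ATRA it gave 3.72-fold more RARB than ATRA alone in SKNO-1 (log2 1.90, SE 0.29, adjusted p = 0.00312), a call kept under all 16 alternatives. By TPM the SKNO-1 libraries stood at 0.28 and 0.32 with ATRA and at 0.68 and 0.51 with both, a smaller ratio, and the RARB length that RSEM estimated was 1768 and 1776 bases with ATRA and 2365 and 3132 bases with both. In U-937 the same comparison gave 1.32-fold (log2 0.40, SE 0.14, adjusted p = 0.0241). That call was lost under 5 of 16 alternatives, among them DESeq2 (adjusted p = 0.0553) and leaving out the second library with both agents (log2 0.21, adjusted p = 0.371). On the same scale the U-937 means were 7.52 ± 0.792 with ATRA and 7.98 ± 1.43 with both (SD, n = 2), which overlap. Compared between lines, RARB was 32.9-fold higher in U-937 than in SKNO-1 under ATRA (log2 5.04, SE 0.23, adjusted p = 2.51e-11), where 67.5% of all genes differed, and 11.7-fold higher under both agents (log2 3.55, SE 0.20, adjusted p = 2.36e-10), where 72.5% differed. Both comparisons were chosen after the counts were seen and held under all 24 alternatives. A difference of the ATRA effects themselves could not be estimated for RARB, because the DMSO groups are at 0.

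RARA (ENSG00000131759.18, chr17:40309180-40357643, plus strand), the receptor gene known from promyelocytic leukaemia, was the most abundant RAR by mean TPM in every group but U-937 with ATRA, where it stood at 7.52 ± 0.502 TPM beside RARB at 7.52 ± 0.792. Its CPM in SKNO-1 was 9.75 and 6.40 with DMSO, 9.93 and 11.6 with ATRA, 8.75 and 7.67 with Corin, and 20.4 and 18.5 with both agents. In U-937 the same groups stood at 11.6 and 9.33, 11.1 and 12.9, 10.6 and 11.9, and 18.0 and 16.7. By CPM the libraries with both agents were above all 6 others in each line. By TPM this held in SKNO-1 but not in U-937. There the libraries with both agents had 10.5 and 8.50 TPM, beside 8.89 in the first DMSO library and 9.22 in the second Corin library. RARA rose 2.41-fold with both agents in SKNO-1 (log2 1.27, SE 0.20, adjusted p = 0.00135) and 1.66-fold in U-937 (log2 0.73, SE 0.14, adjusted p = 9.71e-05), and both calls held under all 16 alternatives. Without the first or the second SKNO-1 DMSO library the value was 1.59 or 0.99, and with the GC trend removed 0.89. The RARA effect of both agents in U-937 minus that in SKNO-1 was -0.50 (SE 0.24, adjusted p = 0.104), and -0.83 (adjusted p = 0.00236) without the first SKNO-1 DMSO library.

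Neither agent alone changed RARA by this test: log2 0.42 (SE 0.20, adjusted p = 0.326) with ATRA and 0.03 (SE 0.20, adjusted p = 0.931) with Corin in SKNO-1, and 0.20 (SE 0.14, adjusted p = 0.297) and 0.10 (SE 0.15, adjusted p = 0.730) in U-937. The SKNO-1 ATRA value became 0.71 (adjusted p = 0.000614) without the first DMSO library and 0.11 (adjusted p = 0.629) without the second, and 0.38 (adjusted p = 0.0483) after GC correction. With both agents RARA was higher than with ATRA (log2 0.85, adjusted p = 0.00859) and than with Corin (1.24, adjusted p = 0.00764) in SKNO-1. The first of these calls was lost when the first library of either group was left out (adjusted p = 0.0623 and 0.0638), and the second when any 1 of its 4 libraries was (adjusted p = 0.0584 to 0.0972). GC correction lowered these differences to 0.51 and 0.70. In U-937 the values were 0.54 against ATRA (adjusted p = 0.00296, and 0.0724 without the first ATRA library) and 0.63 against Corin (adjusted p = 0.00048). The departure from additivity (the log2 effect of the combination less the added log2 effects of ATRA and of Corin) was 0.82 (SE 0.28, adjusted p = 0.277) in SKNO-1 and 0.44 (SE 0.20, adjusted p = 0.130) in U-937. It passed in SKNO-1 without the second DMSO library (1.15, adjusted p = 2.89e-05; 0.54, adjusted p = 0.0752 without the first) and in U-937 after removal of the GC trend (0.62, adjusted p = 0.0118). RARA shares 556 exonic bases with the antisense gene RARA-AS1, which averaged 17.8 counts a library, and whether strand was used in counting is not given in the sources used here.

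RARG (ENSG00000172819.17, chr12:53210567-53232980, minus strand), the RAR best known from epithelia, rose with Corin in both lines. In SKNO-1 it had 0.81 and 0.87 CPM with DMSO, 1.08 and 1.24 with ATRA, 5.13 and 6.32 with Corin, and 7.42 and 7.38 with both agents. The libraries with Corin were all above those without it. Corin raised RARG 6.81-fold (log2 2.77, SE 0.19, adjusted p = 3.82e-05) and both agents 8.81-fold (3.14, SE 0.19, adjusted p = 1.35e-05) over DMSO, and both agents 6.36-fold over ATRA (2.67, SE 0.18, adjusted p = 2.77e-05). These calls held under all 16 alternatives, and leaving out either DMSO library gave 2.70 and 2.80 for Corin. ATRA alone gave 0.47 (SE 0.21, adjusted p = 0.295), and both agents against Corin 0.37 (SE 0.16, adjusted p = 0.155), a value that was -0.10 with the GC trend removed.

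In U-937 the order was different: RARG had 5.32 and 6.82 CPM with DMSO, 2.59 and 2.79 with ATRA, 9.69 and 11.04 with Corin, and 9.56 and 7.11 with both. ATRA lowered it 2.25-fold (log2 -1.17, SE 0.20, adjusted p = 4.71e-05), under all 16 alternatives as well. Corin raised it 1.71-fold (0.77, SE 0.18, adjusted p = 0.00569), a call lost without the second Corin library (adjusted p = 0.0521) or the first DMSO library (adjusted p = 0.109). Both agents gave 1.38-fold over DMSO (0.46, SE 0.19, adjusted p = 0.0335), which was lost under 8 of 16 alternatives, GC correction among them (0.29, adjusted p = 0.176), and 3.10-fold over ATRA (1.63, SE 0.20, adjusted p = 2.66e-07). By TPM, RARG with both agents (4.17 and 2.21) overlapped RARG with DMSO (2.69 and 3.53). The effect of both agents exceeded the sum of the single effects by 0.86 (SE 0.27, adjusted p = 0.0216), where 23.4% of genes departed from additivity in either direction and 8.11% upward. RARG was the 1 member called of 5 with a result, and the call was lost under 5 of 15 alternatives. In SKNO-1 the same departure was -0.10 (SE 0.26, adjusted p = 0.876); no member was called there, where 0.463% of all genes were.

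The RARG effects differed between the lines when the difference itself was tested in 1 fit of 16 libraries. The U-937 effect minus the SKNO-1 effect was -1.60 on the log2 scale with ATRA (SE 0.33, adjusted p = 0.00155), -1.996 with Corin (SE 0.30, adjusted p = 0.00013) and -2.63 with both agents (SE 0.30, adjusted p = 6.94e-07), and each call held under all 24 alternatives. The levels of the lines were closer after treatment: the 6.61-fold difference under DMSO was 2.18-fold under ATRA (adjusted p = 0.000253) and 1.07-fold under both agents (log2 0.09, SE 0.19, adjusted p = 0.669). These comparisons under ATRA and under both agents were chosen after the counts were seen, and 67.5% and 72.5% of all genes differed in them. The members called in the test of the difference in effect between lines were, of 5 with a result (RARB and NRIP1 have none), RARG and RXRA for ATRA (19.4% of all genes), RARG for Corin (12.8%, and 7.49% called lower), and RARG, RXRA and NCOR1 for both agents (40.6%).

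**Figure D3:**
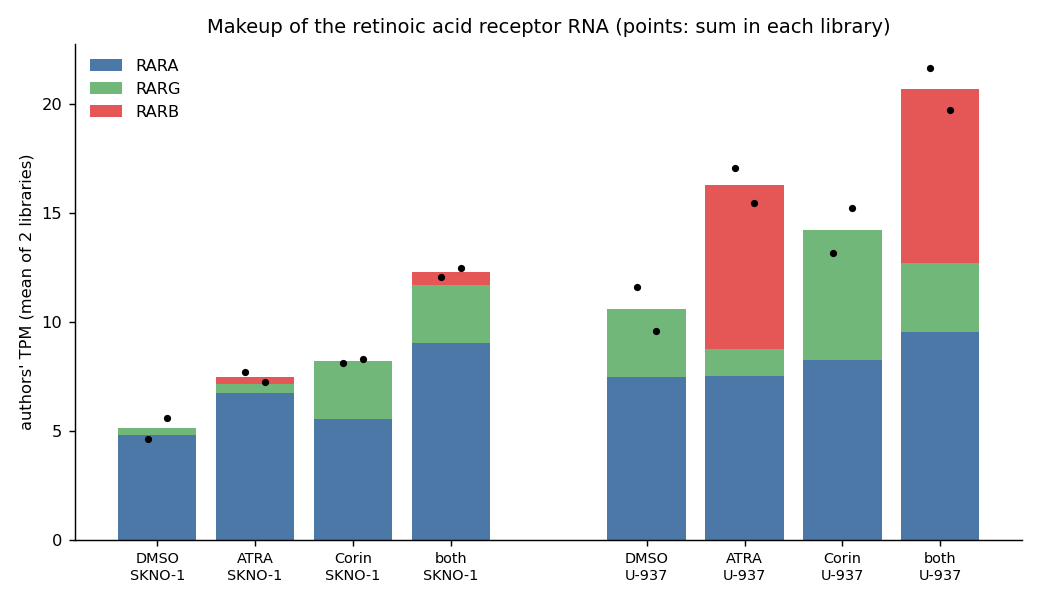
Mean TPM of RARA, RARG and RARB stacked by line and agent; points are the sums of the 3 genes in each library. The sum was highest with both agents in each line, at 12.3 TPM in SKNO-1 and 20.7 TPM in U-937, and RARB makes up 46.2% of it in U-937 with ATRA.

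In SKNO-1 the 3 RARs summed to 5.12 ± 0.686 TPM under DMSO, 7.45 ± 0.332 under ATRA, 8.21 ± 0.127 under Corin and 12.3 ± 0.283 under both (SD, n = 2), a description on the deposited scale without a test. In U-937 the sums were 10.6 ± 1.42, 16.3 ± 1.11, 14.2 ± 1.46 and 20.7 ± 1.38 TPM. Sums of different groups carry the library scale of TPM described above, whereas shares within a library do not. The makeup of the family moved with the agents. In SKNO-1, RARA was 93.7% of it under DMSO, 90.4% under ATRA, 67.2% under Corin and 73.7% under both; RARG was 6.34%, 5.52%, 32.8% and 21.4% in the same order. In U-937 RARA went from 69.9% with DMSO to 46.3% with ATRA, where RARB held 46.2% and RARG 7.51%. With both agents in U-937, RARB held 32.2% and 45.6% in the 2 libraries and RARG 11.2% and 19.3%. RARB made up 4.04% and 4.87% of the family in SKNO-1 with ATRA and with both. SDs of the 2 libraries were at most 9.66 percentage points.

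RXRA (ENSG00000186350.11, chr9:134317098-134440585, plus strand) encodes the RXR that partners RARs in many tissues. Its CPM in SKNO-1 was 6.94 and 5.08 with DMSO, 2.73 and 2.86 with ATRA, 8.95 and 8.64 with Corin, and 8.38 and 8.10 with both agents. The ATRA libraries were the lowest and did not overlap any other group. ATRA lowered RXRA 2.15-fold (log2 -1.10, SE 0.17, adjusted p = 0.00691), to -0.91 and -1.35 without either DMSO library. The call was lost under 3 of 16 alternatives: a fit to the ATRA and DMSO libraries alone (adjusted p = 0.105), and without either ATRA library (adjusted p = 0.0666 and 0.0556). RXRA did not lie below DMSO when Corin was present: both agents gave 2.95-fold more RXRA than ATRA alone (1.56, SE 0.17, adjusted p = 0.000276, kept under all 16 alternatives) and -0.09 against Corin (SE 0.16, adjusted p = 0.725), which GC correction moved to -0.58 (adjusted p = 0.00433). The departure from additivity, 1.01 (SE 0.24, adjusted p = 0.143), did not pass, but did without either DMSO library (0.82, adjusted p = 0.017, and 1.26, adjusted p = 5.45e-05). Corin alone gave 0.55 (SE 0.16, adjusted p = 0.0293) and both agents 0.46 (SE 0.16, adjusted p = 0.0492) over DMSO, calls lost under 8 and 14 of 16 alternatives, among them leaving out the second DMSO library (0.32, adjusted p = 0.0755, and 0.24, adjusted p = 0.192). Without the first DMSO library they were 0.77 (adjusted p = 0.000274) and 0.68 (adjusted p = 0.000657). With the GC trend removed the Corin value was 0.69 (adjusted p = 0.000473) and the value for both agents fell to 0.10 (adjusted p = 0.489).

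U-937 held more RXRA than SKNO-1 throughout, with 26.8 and 23.7 CPM under DMSO, 24.0 and 23.5 under ATRA, 31.5 and 32.0 under Corin, and 26.2 and 20.3 under both agents. No agent passed the test against DMSO: -0.09 (SE 0.12, adjusted p = 0.590) with ATRA, 0.33 (SE 0.12, adjusted p = 0.0759) with Corin and -0.12 (SE 0.12, adjusted p = 0.398) with both. The Corin value passed under 3 of 16 alternatives (adjusted p = 0.0327 to 0.0418), and the value for both agents with the GC trend removed (-0.28, adjusted p = 0.0243). Both agents stood below Corin alone (-0.45, SE 0.12, adjusted p = 0.00258), a call lost without the second library with both agents (adjusted p = 0.0776). The ATRA effect was higher in U-937 than in SKNO-1 by 1.05 (SE 0.21, adjusted p = 0.00137) under all 24 alternatives, and the effect of both agents lower by 0.54 (SE 0.20, adjusted p = 0.0387), which was lost under 17 of 24. The levels differed 7.99-fold between lines under ATRA and 2.66-fold under both agents, against 3.87-fold under DMSO. The comparisons under ATRA and under both agents were chosen after the counts were seen, and 67.5% and 72.5% of all genes differed in them.

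RXRB (ENSG00000204231.10, chr6:33193588-33200665, minus strand), the other RXR measured here, was called in no comparison between agents or between the DMSO groups. It ranged from 18.5 to 25.9 CPM over the 8 SKNO-1 libraries and from 25.1 to 32.3 CPM over the 8 U-937 libraries. Against DMSO its log2 differences were 0.18, -0.22 and 0.15 in SKNO-1 and 0.19, 0.01 and 0.01 in U-937 for ATRA, Corin and both agents. Taking 2 SEs either side, the interval for ATRA ran from -0.09 to 0.44 in SKNO-1 and from -0.03 to 0.42 in U-937. The SKNO-1 values rested on which DMSO library was used. Leaving out the first gave 0.33 for ATRA (adjusted p = 0.00985), -0.04 for Corin (adjusted p = 0.743) and 0.34 for both (adjusted p = 0.00403). Leaving out the second gave -0.04 for ATRA (adjusted p = 0.803), -0.42 for Corin (adjusted p = 0.000664) and -0.04 for both (adjusted p = 0.753), so that the ATRA and combination values turned sign. The RXRB departure from additivity in SKNO-1 was 0.05 (adjusted p = 0.897) without the first and 0.42 (adjusted p = 0.00935) without the second. In that line both agents against ATRA gave -0.27 (adjusted p = 0.0078) after GC correction, and both agents against Corin (0.37, adjusted p = 0.110) passed under 4 of 16 alternatives. By TPM, RXRB made up 84.5% to 95.9% of RXRA plus RXRB in the SKNO-1 groups and 68.0% to 77.1% in U-937. On that scale the U-937 libraries with both agents held 10.7 and 8.81 TPM of RXRB, below the 11.2 to 14.4 TPM of the other U-937 libraries. The CPM of RXRB did not show this lower level, and the lower scale was not particular to RXRB. In the first U-937 libraries with DMSO and with both agents, RXRA had similar CPM (26.8 and 26.2) and lengths (5525 and 5517 bases). Its TPM there was 4.79 and 3.58. RXRG, the remaining RXR, had 0 counts in SKNO-1. RXRB overlaps 361 exonic bases of SLC39A7 on the other strand, which averaged 2962 counts a library, so its counts are uncertain if strand was not used.

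NCOR1 (ENSG00000141027.21, chr17:16029065-16218185, minus strand), the corepressor of unliganded receptors and a scaffold for HDAC3, moved little. In SKNO-1 it had 147 and 177 CPM with DMSO, 186 and 182 with ATRA, 130 and 134 with Corin, and 152 and 145 with both agents. Corin gave 1.22-fold less than DMSO (log2 -0.29, SE 0.09, adjusted p = 0.0313), a call lost under 8 of 16 alternatives though kept without either DMSO library (-0.44 and -0.17). Both agents gave less than ATRA (-0.31, SE 0.09, adjusted p = 0.0201), lost under 5. ATRA (0.19, SE 0.09, adjusted p = 0.309) and both agents (-0.12, SE 0.09, adjusted p = 0.279) did not pass against DMSO. Without the first DMSO library these were 0.01 (adjusted p = 0.863) and -0.26 (adjusted p = 3.87e-05), and without the second 0.29 (adjusted p = 0.00011) and 0.01 (adjusted p = 0.911).

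In U-937 NCOR1 had 254 and 276 CPM with DMSO, 327 and 304 with ATRA, 225 and 234 with Corin, and 306 and 306 with both agents. The ATRA-treated groups were above the groups without ATRA, with no overlap. ATRA gave 1.19-fold over DMSO (0.25, SE 0.10, adjusted p = 0.0423; lost under 8 of 16 alternatives), and both agents 1.33-fold over Corin (0.41, SE 0.10, adjusted p = 0.000896; kept under all 16). Both agents against DMSO gave 0.21 (SE 0.10, adjusted p = 0.0685), and 0.22 (adjusted p = 0.0342) with the GC trend removed. By TPM the U-937 means were 63.1 ± 0.304 in the vehicle group, 63.8 ± 10.8 under ATRA, 54.5 ± 7.997 under Corin and 51.9 ± 5.69 under the combination (SD, n = 2), so the higher CPM with both agents than with Corin was not seen on that scale. The NCOR1 lengths were similar, at 4247 and 4138 bases with Corin and 4157 and 4344 with both. TPM carries the library scale described above, so these means do not test the CPM result. The effect of both agents was higher in U-937 than in SKNO-1 by 0.38 (SE 0.13, adjusted p = 0.0283), lost under 6 of 24 alternatives, 1 of them without the second SKNO-1 DMSO library (0.23, adjusted p = 0.124). NCOR1 shares 340 exonic bases with TTC19 and 321 with PIGL on the other strand.

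NRIP1 (ENSG00000180530.11, chr21:14961235-15065936, minus strand), the corepressor of liganded receptors and itself a known retinoic acid target in other cells, was not called against DMSO. Its CPM in SKNO-1 was 178 and 209 with DMSO, 181 and 173 with ATRA, 230 and 213 with Corin, and 183 and 172 with both agents. The Corin libraries were above all others. ATRA gave -0.13 (SE 0.09, adjusted p = 0.516), Corin 0.20 (SE 0.09, adjusted p = 0.104) and both agents -0.12 (SE 0.09, adjusted p = 0.281). Without the first DMSO library the values were -0.28 for ATRA (adjusted p = 0.000116), 0.06 for Corin (adjusted p = 0.296) and -0.25 for both (adjusted p = 0.000165). Without the second they were -0.05 (adjusted p = 0.541), 0.30 (adjusted p = 3.57e-05) and -0.01 (adjusted p = 0.873). The NRIP1 departure from additivity was -0.03 (adjusted p = 0.888) without the first and -0.26 (adjusted p = 0.00326) without the second. With the GC trend removed the Corin value passed (0.17, adjusted p = 0.017). Both agents against Corin gave -0.32 (SE 0.09, adjusted p = 0.0534), which passed under 8 of 16 alternatives. In U-937 NRIP1 had 0 counts in 7 libraries and 3 in the first ATRA library, and neither agent brought its group above the floor of 3 counts.

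The authors' deposited tables hold DESeq2 comparisons with DMSO for 37 of the same member comparisons. In 12 both their adjusted p and the one here passed 0.05, in 21 neither did, in 4 only the one here did, and in 0 only theirs. The 4 were NCOR1 and RXRA with Corin in SKNO-1, RXRA with both agents in SKNO-1 and RARG with both agents in U-937, for which the authors' deposited table gives adjusted p-values of 0.135, 0.158, 0.327 and 0.186.

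**Figure D4:**
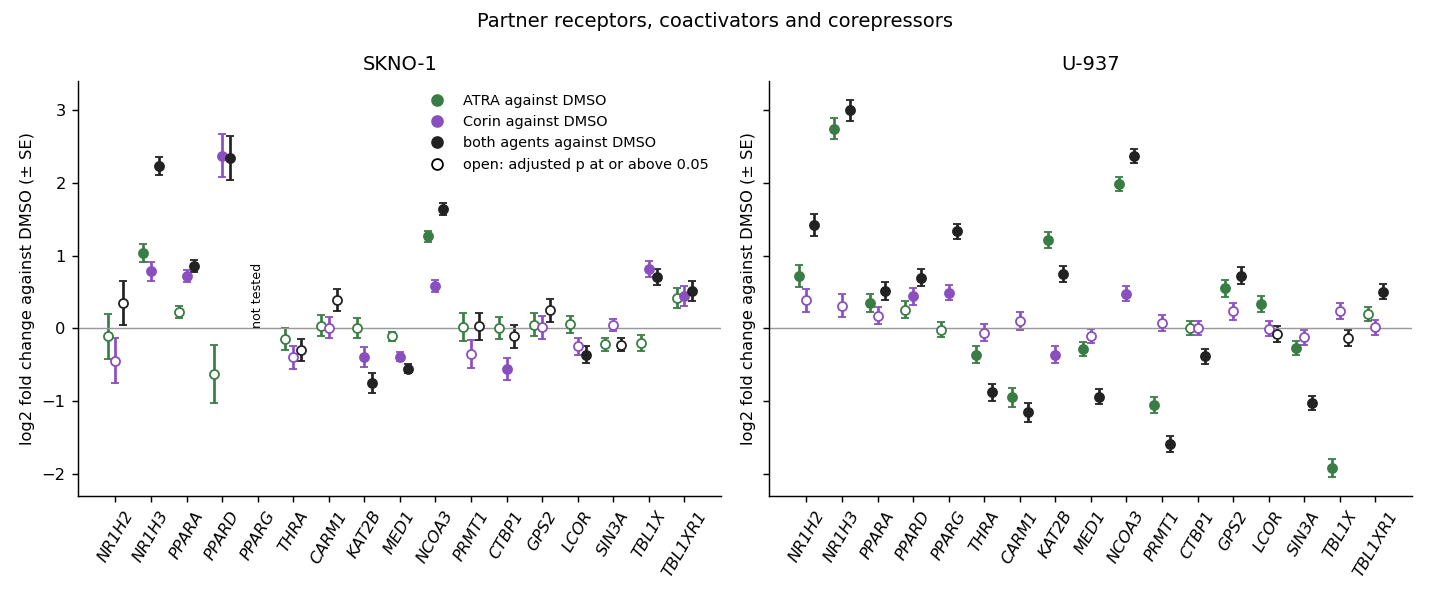
Log2 fold change against DMSO, with bars of 1 standard error, of other nuclear receptors, coactivators and corepressors named by a rule on size, in each line; filled points passed the test and open points did not. NCOA3 is higher in all 6 comparisons, and TBL1X lies at -1.92 in U-937 with ATRA.

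Among 10 other nuclear receptors that can pair with RXRs or are related to them, 7 passed the low-count filter in SKNO-1 and 8 in U-937. The shares of all genes called with ATRA, Corin and both agents, in either direction, were 6.75%, 37.9% and 46.7% in SKNO-1 and 41.8%, 12.9% and 65.3% in U-937, against which the counts in this and the next 2 lists are read. ATRA, Corin and both agents raised 1, 3 and 4 of 7 and lowered none in SKNO-1; in U-937 they raised 3, 2 and 5 of 8 and lowered 1, 0 and 1. NR1H3, the oxysterol receptor LXR alpha and an RXR partner, rose 2.05-fold with ATRA (log2 1.04, SE 0.13, adjusted p = 0.0021) and 4.68-fold with both (2.23, SE 0.13, adjusted p = 1.06e-05) in SKNO-1, and 6.70-fold (2.74, SE 0.15) and 7.97-fold (2.99, SE 0.15) in U-937. NR1H2, its paralogue LXR beta, rose in U-937 by 0.72 with ATRA and 1.42 with both. PPARD rose 5.19-fold with Corin in SKNO-1, from 0.378 to 1.94 CPM. PPARG, a lipid-sensing receptor, rose 2.52-fold with both agents in U-937 (1.33, SE 0.11), from 35.1 to 88.3 CPM.

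Of 10 genes of the NCOR1 complex or of other corepressor complexes, ATRA changed none in SKNO-1. Corin there raised 2 and lowered 1, and both agents raised 4 and lowered 2. In U-937 ATRA raised 2 and lowered 2, Corin changed none, and both agents raised 3 and lowered 3, that is 4 and 6 of 10 beside 41.8% and 65.3% of all genes. TBL1X, a subunit of the NCOR1 complex, fell 3.79-fold with ATRA in U-937, from 36.3 to 9.58 CPM (log2 -1.92, SE 0.12, adjusted p = 5.84e-12). Its level with both agents was 33.0 CPM, 3.45-fold above ATRA alone (1.79, SE 0.12, adjusted p = 1.24e-11). In SKNO-1 TBL1X rose with Corin (0.82, SE 0.11, adjusted p = 0.000829) and the ATRA effects of the lines differed by -1.68 (SE 0.17, adjusted p = 9.64e-07). GPS2, another subunit of the NCOR1 complex, rose in U-937 by 0.55 with ATRA and 0.72 with both, and SIN3A, the scaffold of a separate deacetylase complex, fell by 1.03 with both.

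Of 9 coactivators, ATRA raised 1 and Corin 1 in SKNO-1, where Corin lowered 2 and both agents raised 1 and lowered 3. In U-937 ATRA raised 4 and lowered 3, Corin raised 1 and lowered 1, and both agents raised 4 and lowered 4, that is 7, 2 and 8 of 9 beside 41.8%, 12.9% and 65.3% of all genes. NCOA3, a p160 coactivator that binds liganded receptors, was the coactivator raised in each of these 6 comparisons. Its SKNO-1 means were 51.9, 125, 77.7 and 162 CPM under vehicle, ATRA, Corin and the combination, and its U-937 means 62.4, 247, 86.9 and 322 CPM. The ATRA effects were 1.26 (SE 0.08, adjusted p = 7.19e-05) and 1.98 (SE 0.10, adjusted p = 1.28e-13), and differed by 0.76 (SE 0.13, adjusted p = 0.000291). The arginine methyltransferases fell in U-937: PRMT1 by 1.06 with ATRA and 1.59 with both agents, and CARM1 by 1.15 with both. KAT2B, an acetyltransferase, rose 2.32-fold with ATRA in U-937 (1.22, SE 0.11) and fell by 0.75 (SE 0.14, adjusted p = 0.00282) with both agents in SKNO-1.

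Of 12 known retinoic acid response genes, 7 passed the low-count filter in SKNO-1 (6.75%, 37.9% and 46.7% of all genes called), where ATRA raised 5, Corin raised 5 and lowered 1, and both agents raised 6. In U-937 8 passed it (41.8%, 12.9% and 65.3%), and ATRA raised 6, Corin 4 and both agents 7, with none lowered. DHRS3, a retinal reductase, had 0 counts in SKNO-1 with DMSO, 3.44 CPM with ATRA and 29.4 with both agents (at least 83.6-fold and at least 710-fold higher), and 3.16, 106 and 209 CPM in U-937. PLAAT4, a phospholipid-modifying enzyme, rose 17.0-fold with ATRA and 35.7-fold with both in SKNO-1 and 64.2-fold with both in U-937. CYP26A1, the hydroxylase that clears retinoic acid, had 1 count in the SKNO-1 DMSO group, 6.01 CPM with ATRA and 20.8 CPM with both, and at most 3 counts in any U-937 group. TGM2, a transglutaminase, had 1 count in the U-937 DMSO group, 79.3 CPM with ATRA and 174 CPM with both. Like RARB, TGM2 was higher in U-937 than in SKNO-1 under ATRA, by 4.91-fold (log2 2.30, SE 0.11, adjusted p = 1.09e-12). Of 9 response genes tested in that comparison, which was chosen after the counts were seen, 7 were higher in U-937 and 2 lower, beside 67.5% of all genes called. Unlike RARB, TGM2 was present in SKNO-1 under DMSO, at 2.40 CPM, above its 0.0170 CPM in U-937. Corin alone raised TGM2 to 7.36 CPM in SKNO-1 and to 0.96 CPM in U-937.

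The genes with profiles most like each member were found by Pearson's r of log2(CPM + 0.5) over the 8 group means among 10537 genes; the points share 2 lines and their control groups, and the values are descriptions. For RARB these were ARL14EPL (r = 0.990), MADD (0.985) and CFP (0.981). ARL14EPL stood at 16.4 and 45.9 CPM in U-937 with ATRA and both, at 1.36 and 2.96 in SKNO-1, and at most at 0.0459 in the groups without ATRA. RARA was nearest to MAP1S (0.966), CD300LF (0.925) and RPL28 (0.915). RARG was nearest to PORCN (0.986), SH3PXD2B (0.975) and IGSF3 (0.957), the last of which went from 0.469 CPM in vehicle-treated SKNO-1 to 11.8 CPM under Corin. HIP1, HRH2 (both 0.990) and CAPN2 (0.984) were nearest to RXRA, and HIP1 likewise had its lowest level in SKNO-1 with ATRA, at 1.85 CPM against 5.12 with DMSO. For RXRB they were APEX2 (0.990) and NSUN5 (0.968), and for NCOR1 NFATC3 (0.997), ITPKC (0.991) and ZNF75D (0.990). ROBO1, FIRRE and ABCC13, nearest to NRIP1, had 47.3 to 133 CPM in the SKNO-1 groups and at most 0.0142 CPM in U-937, so the 8 points there fall into 2 separate sets, 1 for each line.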

How the data were processed

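RNA from 16 libraries was made with a stranded total RNA kit and sequenced to at least 50 M paired reads of 100 bases, per the labels' protocols. The submitters' processing notes name Trimmomatic, STAR, RSEM, DESeq2, deepTools and hg38, without versions. The deposited estimated counts and TPM are RSEM gene values, per the file headers; the authors' tables give log2 fold changes and p-values from DESeq2. Whether both mates or strand entered the counts is not given in the sources used here. Estimated counts were rounded (20.4% of positive values were not whole), which changed no library total by more than 74.5 counts, and tested with edgeR 4.0.16 (filterByExpr, TMM, robust quasi-likelihood, Benjamini-Hochberg over all genes tested, called under 0.05) in R 4.3.3: 1 fit per line of 4 groups (17479 and 17717 genes tested, 4 residual degrees of freedom) and 1 fit of all 16 libraries for differences between lines (19872 genes). Biological coefficients of variation were 0.107, 0.0945 and 0.101. Folds against groups at 0 use a floor of 3 counts over the group and are lower bounds; precision comes from 2 libraries a group and 28.4 M to 37.8 M counts each. Other scalings, DESeq2 1.42.0, no filter, fewer libraries, a replicate block, GC correction and leave-one-out were tried, and the code was tested on simulated data. The GC correction took a lowess trend of each library on GC content (GENCODE 44) and entered it in edgeR as an offset. The members and the lists were chosen with earlier results of these data known. All members are named; of each list, at most the 3 called genes with the largest change in a comparison and a mean of at least 1 CPM in the line, besides RXRG, TGM2 between lines and the mentions of level alone. Motifs were searched in RefSeq promoter windows. Some genes that this rule names are not reported here.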

Additional observations from a re-analysis of the deposited data

Results flagged for a closer look

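The 6 differences between the lines listed here, U-937 minus SKNO-1, passed edgeR's quasi-likelihood test of the difference in treatment effect itself. For RARG they were -1.60 with ATRA, -1.996 with Corin and -2.63 with both agents on the log2 scale. For RXRA they were 1.05 with ATRA and -0.54 with both agents, and for NCOR1 0.38 with both agents. The RARG values and the RXRA value with ATRA held under all 24 alternatives; the others were lost under 17 and 6 of 24. All use the SKNO-1 DMSO libraries, whose difference followed GC content. Without the second of these libraries the RXRA and NCOR1 values with both agents were -0.33 (adjusted p = 0.184) and 0.23 (adjusted p = 0.124). Line and GM-CSF cannot be told apart in any of these differences between lines. No group had enough libraries for a test of outlying samples.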

How the results depend on the processing

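Of 95 member results, 41 were called; 24 of these held under every alternative and 17 were lost under some, while 29 of 54 uncalled results passed under some. No called member changed sign. Of 105 results for named list genes, 85 kept their call throughout and 0 reversed. Counts of members called moved by over 1.5 times as follows. Fits to only the libraries compared gave 0 in place of 2 for ATRA in SKNO-1, 1 in place of 3 for Corin in SKNO-1, 6 in place of 2 for both agents against Corin in SKNO-1, 2 in place of 1 for Corin in U-937, and 1 in place of 3 for the line difference with both agents. GC correction, with or without the replicate block, gave 4 for both agents against Corin in SKNO-1, 2 in place of 1 for additivity in U-937 and 2 in place of 1 for the line difference with Corin. No filter gave 4 for both agents against Corin and 2 in place of 0 for additivity in SKNO-1, and library totals 0 for additivity in U-937. Leaving out 1 library gave, in SKNO-1, 1 to 5 for ATRA, 1 to 4 for Corin, 3 to 7 for both agents, 3 to 5 against ATRA, 1 to 6 against Corin and 0 to 4 for additivity; in U-937, 0 to 2 for Corin, 1 to 3 for both agents against ATRA and 0 to 1 for additivity; and 1 to 4 for the line difference with both agents. The cause was not tested. Scaling by library totals shifted the median of all genes by -0.122 (both agents, U-937), -0.129 (both against Corin, U-937), 0.163 (DMSO between lines) and -0.157 (line difference with both agents), and member values are relative to the main medians.

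No pairing of the samples by replicate number was seen: deviations of same-numbered libraries correlated at -0.487 to 0.237 over 6 pairs of groups in SKNO-1 and at -0.445 to 0.415 in U-937. These deviations also followed GC content with opposite signs (r = 0.796 in SKNO-1 DMSO, -0.421 in SKNO-1 with ATRA). That could hide a shared culture effect, so the check cannot exclude a pairing. With the replicate number as a block, no count of members called moved by over 1.5 times; RXRA with both agents in SKNO-1 (0.46, adjusted p = 0.059) and NCOR1 with ATRA in U-937 (adjusted p = 0.0582) were among the calls lost.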
